A study of Homo sapiens with 12 samples.

Results

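The 10 genes described here write, read and erase N6-methyladenosine (m6A), a methyl mark on adenosines inside RNA. They were chosen by symbol from a gene table of 58302 genes and from a table of 2364 differential acetylation peaks, where 5 peaks in 3 genes carried their names. The members comprise 4 writers (METTL3, METTL14, WTAP and VIRMA), 5 readers with a YTH domain (YTHDF1, YTHDF2, YTHDF3, YTHDC1 and YTHDC2) and the eraser ALKBH5. All 10 symbols were found, each once.

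METTL3 is the catalytic methyltransferase of the m6A writer complex and METTL14 is its RNA-binding partner. WTAP and VIRMA hold that pair in the nucleus and guide it along the transcript. YTHDF proteins bind m6A in the cytoplasm, where YTHDF2 brings marked mRNAs to deadenylation and decay, YTHDC1 acts in the nucleus on splicing and export, and YTHDC2 is an RNA helicase. ALKBH5 removes the methyl group, and the mark is studied in colorectal cancer because it sets how long many growth-related mRNAs last.

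The study asked which RNAs carry N4-acetylcytidine (ac4C), another RNA mark, through the acetyltransferase NAT10. All 12 libraries came from DLD1, an established human colorectal cancer line, at passage 5, carrying a control short hairpin RNA (shNC) or a hairpin against NAT10 (shNAT10). Each hairpin had 3 input libraries and 3 libraries immunoprecipitated with an ac4C antibody, a method called acRIP-seq, and the labels name no other treatment. The number of hairpin sequences, and whether replicates were separate cultures, were not stated in the sources at hand. The p-values measure only spread between these samples, and in the main limma fit that spread came mostly from other genes of like level. The gene table held the 6 input libraries, and the 6 immunoprecipitated ones were not analysed here as libraries.

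Input levels are in FPKM, which divides fragments by a gene's length and by the depth of its library, as the authors deposited them. From the step sizes of these values, fragments on genes were recovered as 2636810 to 2758067 in shNC and 1224097 to 1303818 among shNAT10-labelled libraries, so the shNC values rest on more reads. These totals are approximate, since lengths of genes above 0 in 1 library were found only up to a factor. In shNAT10 replicate 3 the total (1224097) exceeded the recovered depth that scales its FPKM (1197889), and the reason was not tested. All 8 epithelial markers were found, 7 of them in every library, with a summed level of 5026 to 5384 FPKM in shNC and 8107 to 8583 among shNAT10-labelled libraries. Of 6 fibroblast and muscle markers all 6 were above 0 in some library, with summed levels of 0 to 3.81 FPKM in shNC and 7.40 to 68.9 in the other group. Leukocyte markers summed to at most 2.29, endothelial or erythroid markers to at most 0.241 and neural markers to at most 3.29 in any library, and CD3E, LYZ, PECAM1, CDH5, HBA1, HBB, RBFOX3, SNAP25 and TUBB3 were listed at 0 in all 6.

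NAT10, the targeted gene, was at 1.24, 3.95 and 2.89 FPKM in shNC, and at 0, 28.1 and 31.4 in replicates 1 to 3 labelled shNAT10. Replicates 2 and 3 thus lay above every shNC library, against their label, and only replicate 1 lay below. The log2 difference was 1.48 (SE 1.86, n = 3 per group, limma adjusted p = 0.754), and a two-sided exact permutation test, which cannot fall under 0.1 here, gave p = 0.4. Without replicates 2 and 3 labelled shNAT10 it was -1.81 (limma adjusted p = 0.671). Without replicate 1 it was 3.13, without replicate 2 it was 0.70 and without replicate 3 it was 0.62, with voom, a count-based fit, 0.44, and with a pseudocount of 0.1 it was 0.82. Every direction below is therefore that of the label. TBP and HPRT1, housekeeping genes, were listed at 0 in 5 and 2 libraries, so a 0 in this table is given only as listed. HPRT1 was at 0, 0.375 and 0.359 FPKM in shNC and at 157, 227 and 0 among shNAT10-labelled libraries. ACTB, a far more abundant housekeeping gene, was above 0 in all 6, at 841 to 1135 FPKM. Log2 differences of TBP, HPRT1 and ACTB were -0.97, 4.75 and 0.21 (limma adjusted p 0.754, 0.754 and 0.888). These markers, NAT10 and the difference in depth moved with the groups or within them, and their part in the members' values was not tested.

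Groups did not overlap in 9.61% of all tested genes, in either direction. Among the members WTAP alone separated so, and it was lower in all 3 libraries labelled shNAT10. YTHDF2 and YTHDF1, readers, had higher means in those libraries but overlapped shNC, and ALKBH5 was near 0 in 2 of them and at its highest in the remaining library. METTL3, YTHDF3 and YTHDC2 were listed at 0 in 5 of 6 libraries each. No member passed the test across all genes (0 of 9 tested by limma at an adjusted p under 0.05, against 0.190% of 10517 genes). All members code for protein, and limma passed 0 of 8140 tested protein-coding genes (0.00%), so that count sets no member apart. At an unadjusted p under 0.05 stood 1 of 9 members, against 3.70% of all tested genes and 178 of 8140 tested protein-coding genes. With voom on recovered fragments 0 of 9 passed, against 0.903% of genes, and 1 stood at an unadjusted p under 0.05, against 7.78%. In both fits that member was WTAP. YTHDC2 had a mean of 0.270 FPKM, under the minimum mean of 1, and was not tested.

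**Figure D1:**
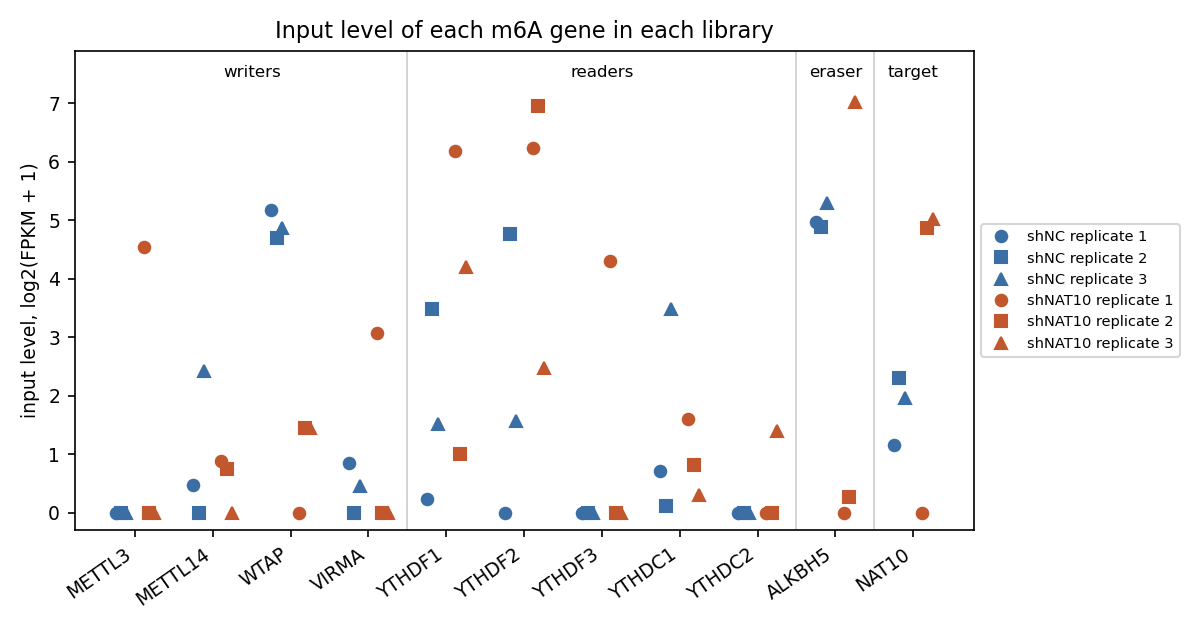
Input level of each member and of NAT10 in each library, as log2(FPKM + 1), with 1 point per library, blue for shNC and orange for libraries labelled shNAT10, and the marker shape giving the replicate number. WTAP separates by group (24.8 FPKM or more in shNC, 1.72 or less in the other group), as do 9.61% of tested genes in either direction. ALKBH5 is split among shNAT10-labelled libraries (0, 0.209 and 129 FPKM).

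Among the writers, WTAP (ENSG00000146457), the adaptor that holds the complex in nuclear speckles, was at 35.3, 24.8 and 28.2 FPKM in shNC replicates 1 to 3. Replicate 1 labelled shNAT10 had a listed value of 0, and both other replicates of that label had 1.72. These levels rested on 697, 475 and 564 fragments in shNC and on 0, 15 and 12 in the other group. The shNC libraries lay close together and all other libraries lay far below them, a separation downward that 6.72% of tested genes also showed (9.61% in either direction). The difference was -3.95 on the log2(FPKM + 1) scale (SE 1.81, 95% interval -7.52 to -0.39, limma adjusted p = 0.754). Its unadjusted p was 0.0300 by limma, a side of 0.05 on which 2.32% of tested genes lay with a lower level, and 0.1 by an exact two-sided permutation test, the smallest that 3 against 3 can give. In shNAT10 replicate 1 a count of 0 allows up to 0.370 FPKM by counting error (3 fragments).

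METTL3 (ENSG00000165819), the catalytic subunit, had a listed value of 0 throughout shNC, and 22.2, 0 and 0 FPKM in replicates 1 to 3 labelled shNAT10. A single library therefore carried the whole signal of this gene. METTL14 (ENSG00000145388), its partner, was at 0.388, 0 and 4.34 in shNC and at 0.839, 0.681 and 0 among shNAT10-labelled libraries, from at most 102 fragments. VIRMA (ENSG00000164944), the large scaffold of the complex, was at 0.796, 0 and 0.379 in shNC, against 7.42, 0 and 0 in the other group. METTL3 and VIRMA each had their highest value in shNAT10 replicate 1, where WTAP was listed at 0, and the groups of METTL3, METTL14 and VIRMA overlapped. Their log2 differences were 1.51, -0.42 and 0.59 for METTL3, METTL14 and VIRMA (SE 1.39, 1.38 and 1.37; limma adjusted p 0.754, 0.927 and 0.894). Each of these rested on 1 library: without shNAT10 replicate 1 METTL3 was at 0 throughout and VIRMA turned to -0.44, and without shNC replicate 3 METTL14 turned to 0.31. The sign for METTL14 also turned under quantile normalization (0.49). The summed level of the 4 writers was 36.5, 24.8 and 32.9 FPKM in shNC and 30.5, 2.40 and 1.72 among shNAT10-labelled libraries. WTAP made up most of that sum in shNC, and METTL3 with VIRMA most of it in shNAT10 replicate 1.

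YTHDF2 (ENSG00000198492), the reader that brings marked mRNAs to the CCR4-NOT deadenylase, had the highest mean of the members over the 6 libraries (38.4 FPKM). It was at 0, 26.3 and 1.97 in shNC, against 74.2, 123 and 4.54 among shNAT10-labelled libraries, from 0, 333, 26, 398, 712 and 21 fragments. Replicates 1 and 2 labelled shNAT10 stood above all shNC libraries, and replicate 3 lay between shNC replicates 3 and 2. The difference was 3.11 (SE 1.73, 95% interval -0.30 to 6.52, limma adjusted p = 0.754; exact permutation p = 0.2). It was 4.48 without shNAT10 replicate 3 and 2.05 without shNC replicate 1.

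YTHDF1 (ENSG00000149658), a reader linked to translation of marked mRNAs, was above 0 in all 6 libraries, at 0.179, 10.1 and 1.86 FPKM in shNC and 71.7, 1.01 and 17.4 among shNAT10-labelled libraries. It rested on 2, 110 and 21 fragments in shNC and on 329, 5 and 69 in the other group. The 2 fragments of shNC replicate 1 lie under the limit of 3 fragments that a count of 0 allows. Replicates 1 and 3 labelled shNAT10 were above shNC, and replicate 2 was inside its range. The difference was 2.06 (SE 1.84, 95% interval -1.57 to 5.68, limma adjusted p = 0.754), and without shNAT10 replicate 1 it was 0.86. YTHDF3 (ENSG00000185728), the remaining YTHDF reader, was listed at 0 in every library except shNAT10 replicate 1 (18.8 FPKM). Its difference of 1.44 (SE 1.36, limma adjusted p = 0.754) came from that library alone. All 3 YTHDF genes were thus above 0 together in shNAT10 replicate 1 alone.

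YTHDC1 (ENSG00000083896), the nuclear reader, was above 0 in all 6 libraries, at 0.630, 0.0866 and 10.2 FPKM in shNC and at 2.05, 0.759 and 0.237 among shNAT10-labelled libraries. These levels rested on 15, 2 and 246 fragments in shNC and on 20, 8 and 2 in the other group. Values from 2 fragments lie under the limit of 3 fragments that a count of 0 allows. The shNC libraries alone spanned the values of the other group. Its difference was -0.53 (SE 1.67, limma adjusted p = 0.926), turned to 0.33 by quantile normalization, to 0.50 without shNC replicate 3 and to 0.17 without replicates 2 and 3 labelled shNAT10. YTHDC2 (ENSG00000047188), the helicase reader, was listed at 0 in every library except shNAT10 replicate 3, at 1.62 FPKM. The 5 readers summed to 0.810, 36.5 and 14.0 FPKM in shNC and to 167, 125 and 23.9 among shNAT10-labelled libraries. YTHDF2 held most of each reader sum in shNC replicate 2 and in shNAT10 replicate 2, where it alone was 96.6% of the summed level of all members.

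ALKBH5 (ENSG00000091542), the eraser, was at 30.4, 28.4 and 38.2 FPKM in shNC, from 328, 298 and 418 fragments. With the shNAT10 label, replicate 1 had a listed 0, replicate 2 had 0.209 and replicate 3 had 129 FPKM, from 0, 1 and 492 fragments. In shNC its replicates lay as close as those of WTAP, whereas the shNAT10-labelled libraries fell on both sides of them. The difference was -2.62 (SE 1.72, 95% interval -6.02 to 0.78, limma adjusted p = 0.754; exact permutation p = 0.4). Without shNAT10 replicate 3 it was -4.91 (limma adjusted p = 0.703), and without replicate 1 or 2 it was -1.40 or -1.54.

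**Figure D2:**
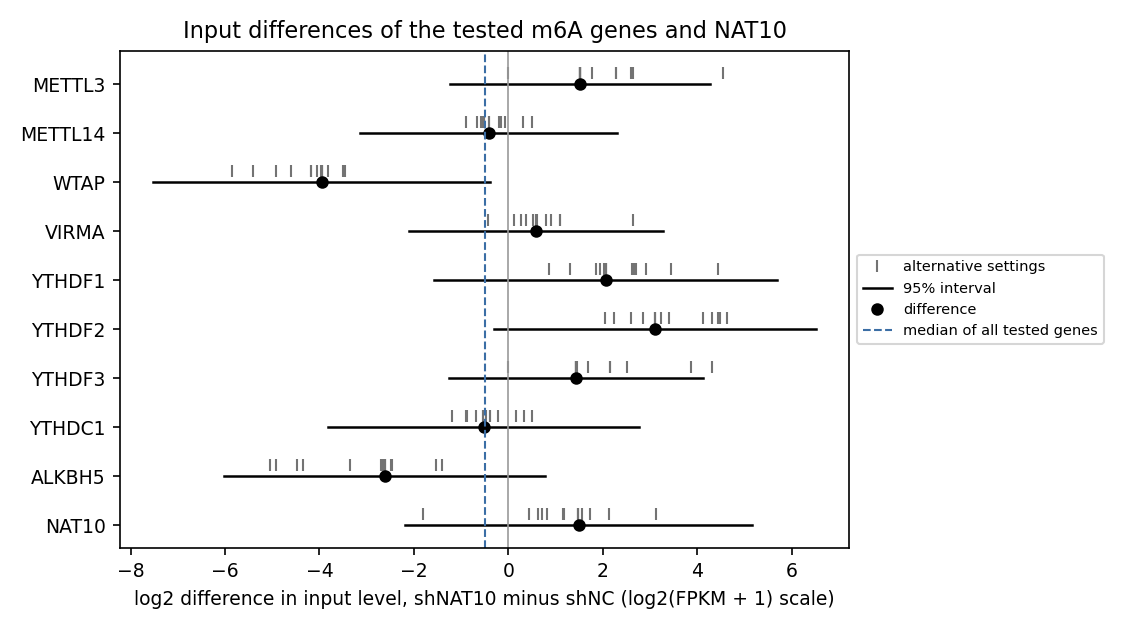
Log2 difference in input level, shNAT10 minus shNC, of the 9 tested members and NAT10, with the limma 95% interval as a line and the values under alternative settings as grey ticks. WTAP, at -3.95, is the only gene shown whose interval leaves out 0 (unadjusted), and the dashed line marks the median of all tested genes (-0.49).

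The order of levels differed between the groups. By median in shNC, ALKBH5 (30.4 FPKM) and WTAP (28.2) led, followed by YTHDF2 (1.97), YTHDF1 (1.86), YTHDC1 (0.630), METTL14 (0.388) and VIRMA (0.379), with METTL3, YTHDC2 and YTHDF3 listed at 0. Among shNAT10-labelled libraries the order was YTHDF2 (74.2), YTHDF1 (17.4), WTAP (1.72), YTHDC1 (0.759), METTL14 (0.681) and ALKBH5 (0.209), with the other members at a median of 0. Every neighbouring pair in either order overlapped over its 3 libraries. FPKM is scaled by length, so levels of different genes are set side by side here, but neighbours could not be told apart beyond their spread. In bulk RNA, fewer cells with an mRNA and less of it per cell cannot be told apart either.

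Of the 60 member values 23 were at 0 (38.3%), 12 in shNC and 11 among shNAT10-labelled libraries. For the 9 tested members the share was 33.3%, against 34.5% for tested protein-coding genes. Members above 0 numbered 6, 5 and 7 in shNC and 7, 6 and 6 among shNAT10-labelled libraries, although the latter held fewer fragments. The 9 tested members had a median log2 difference of 0.59 with 5 above 0 and 4 below, against a median of -0.49 over all tested genes, of which 41.2% were above 0. A member abundant in 1 library alone passed the filter through that library, so these counts describe and support nothing.

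The pattern of YTHDF2 over the 6 libraries was most like that of GART, an enzyme of purine synthesis (Pearson r = 0.97), TUSC2 (0.97) and MGAT5, a glycosyltransferase (0.97), among 8139 other tested protein-coding genes. GART was at 0.648, 10.7 and 0.715 FPKM in shNC and at 17.0, 28.0 and 1.40 among shNAT10-labelled libraries, and 37 genes reached an r over 0.9. With 6 libraries and so many genes such a likeness is a description only.

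Outside the 10 members, 41 genes of the m6A pathway were listed by function, 35 of them abundant enough to test. By limma 0 of 35 passed in either direction, with 1 at an unadjusted p under 0.05, and voom also passed 0, with 2 at an unadjusted p under 0.05. All tested genes stood at that unadjusted threshold in 3.70% by limma and 7.78% by voom, and 178 of 8140 tested protein-coding genes did by limma. The counts of 1 and 2 thus lie near the background. The median log2 difference of the 35 was -0.59, with 13 above 0 and 22 below, close to the -0.49 of all tested genes. Of the writer complex partners 2 of 4 were tested, and ZC3H13, a zinc finger protein of the complex, was the most abundant, at 13.4, 10.0 and 1.65 FPKM in shNC and 0, 18.9 and 0.569 among shNAT10-labelled libraries. Other RNA adenosine methyltransferases (5 of 5 tested, median 0.05) were led by TRMT112, the cofactor of METTL5, at 0, 44.8 and 52.4 against 14.2, 0 and 95.6. Both genes overlapped between the groups. FTO, the other m6A eraser, lay under the filter, at 0.0968, 0 and 0 against 0, 0 and 5.23.

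Of the other proteins that bind or respond to m6A, 10 of 11 were tested (median -0.72, 3 above 0 and 7 below). HNRNPA2B1, a nuclear RNA-binding protein, was the most abundant of them and was above 0 in every library, at 65.3, 36.1 and 17.7 FPKM in shNC and 37.6, 72.8 and 55.5 in the other group. The CCR4-NOT deadenylase, which YTHDF2 recruits, and the TOB proteins listed with it had 11 of 12 tested (median -0.59). They were led by CNOT11, at 41.6, 89.2 and 0.209 against 51.7, 46.7 and 0. Partners of YTHDC1 and YTHDC2 (5 of 5 tested, median -0.89) were led by the splicing factor SRSF3, at 33.8, 32.8 and 54.3 against 4.35, 0.844 and 113. Like ALKBH5, SRSF3 was low in replicates 1 and 2 labelled shNAT10 and at its highest in replicate 3.

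AHCY, which clears the S-adenosylhomocysteine left by methyltransferases, led the methyl donor genes (2 of 3 tested). It was at 15.7, 7.66 and 3.82 FPKM in shNC and at 104, 47.3 and 144 among shNAT10-labelled libraries. All 3 lay above shNC, the only 1 of the 35 tested pathway genes whose groups did not overlap in either direction. Of all tested genes 9.61% separated in either direction, and 2.89% upward. The log2 difference was 3.35 (SE 1.50), and it did not pass (limma adjusted p = 0.754).

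**Figure D3:**
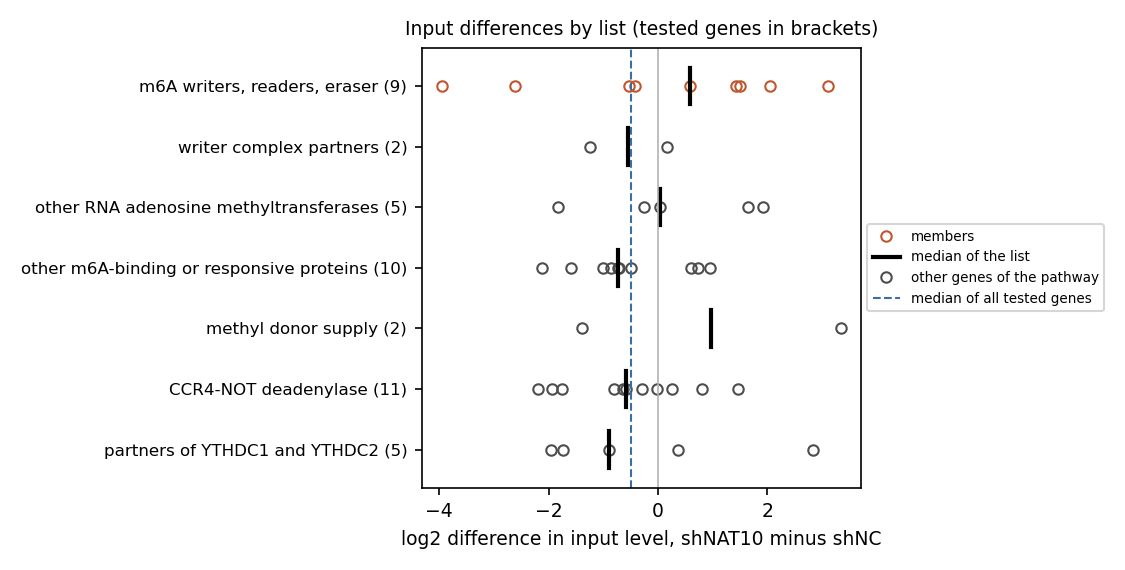
Log2 difference in input level, shNAT10 minus shNC, with 1 circle per tested gene, by list, and black bars at the list medians. The members spread from -3.95 (WTAP) to 3.11 (YTHDF2), and no gene shown passed the test across all genes.

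The second table holds the authors' differential ac4C peaks, stretches of RNA enriched by the antibody whose enrichment differed between the hairpins. It gives each peak a fold enrichment, a log2 change between the hairpins and its FDR, all of them the authors' values. Which hairpin is the numerator of the log2 change is not stated, so signs below carry no direction of effect. Peaks above an FDR of 0.0501 were not in the table, which has 1931 genes.

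Differential peaks were listed in the eraser (2 peaks) and in 2 of 5 readers (YTHDF1 with 1 and YTHDF2 with 2), and in none of the 4 writers. The 3 genes were the 3 most abundant members by mean FPKM. Of the 9 tested members 3 had a peak, against 15.4% of all tested genes and 19.0% of tested protein-coding genes. Of the 1758 coding genes at least as abundant as YTHDF1, 27.6% had one, as did all 3 members at that level. That level was itself taken from the lowest member with a peak, so the 27.6% is not compared with the members. WTAP, the next in level, had no peak, nor had NAT10. Among the other 41 pathway genes 13 had a peak, 11 of them among the 35 tested (31.4%). In the writer complex these were ZC3H13, which was tested, and RBM15, which was not. These shares are descriptions, and a peak can only be called where reads cover a transcript.

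Both ALKBH5 peaks lay in the 3' UTR and had opposite signs. The authors' deposited table gives the first at chr17:18208732-18208911 (GRCh38, plus strand, 180 nt), with a fold of 6.59, a log2 change of 6.97 and an FDR of 6.31e-24. The second, at chr17:18209298-18209507 (210 nt), has a deposited fold of 2.85, a log2 change of -5.04 and an FDR of 7.94e-09. The peaks were 386 nt apart and ended 1043 and 447 nt before the 3' end of the RefSeq gene (chr17:18183828-18209954). Of the 328 genes with 2 or more deposited peaks, 160 (48.8%) also had both signs, so the split in ALKBH5 was common in the table. The authors also counted sites of their repeated CXX motif, and gave 1 site in the first ALKBH5 peak and 3 in the second, spaced by 30 and 71 nt. Of all deposited peaks 17.8% had 3 or more such sites.

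YTHDF1 had 1 deposited peak, annotated to the 3' UTR on the minus strand, in 2 blocks. The block nearer the gene's 3' end was at chr20:63196529-63196734 and the other, 5552 nt upstream in the gene, at chr20:63202287-63202467. The authors' table gives it a fold of 31.8, above that of 74.0% of deposited peaks, a log2 change of -7.42 and an FDR of 3.98e-33. Only 2.74% of the negative peaks had a larger deposited change. Its 1 motif site lay in the upstream block.

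Both YTHDF2 peaks were annotated to coding sequence and had a positive deposited log2 change. The first, in 2 blocks of 22 and 158 nt from chr1:28740377 to 28742560 (plus strand), has a fold of 69.1 in the authors' deposited table, a log2 change of 6.13 and an FDR of 0.0339. Its FDR ranks 2225 of 2364, near the table's limit, while its fold ranks 349. The second, at chr1:28743786-28743936, has a deposited fold of 5.59, a log2 change of 8.34 and an FDR of 8.51e-08. It held 1 motif site, and the first held none. Coding sequence holds 59.5% of all deposited peaks and the 3' UTR 21.3%, against 2 and 3 of the 5 member peaks.

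**Figure D4:**
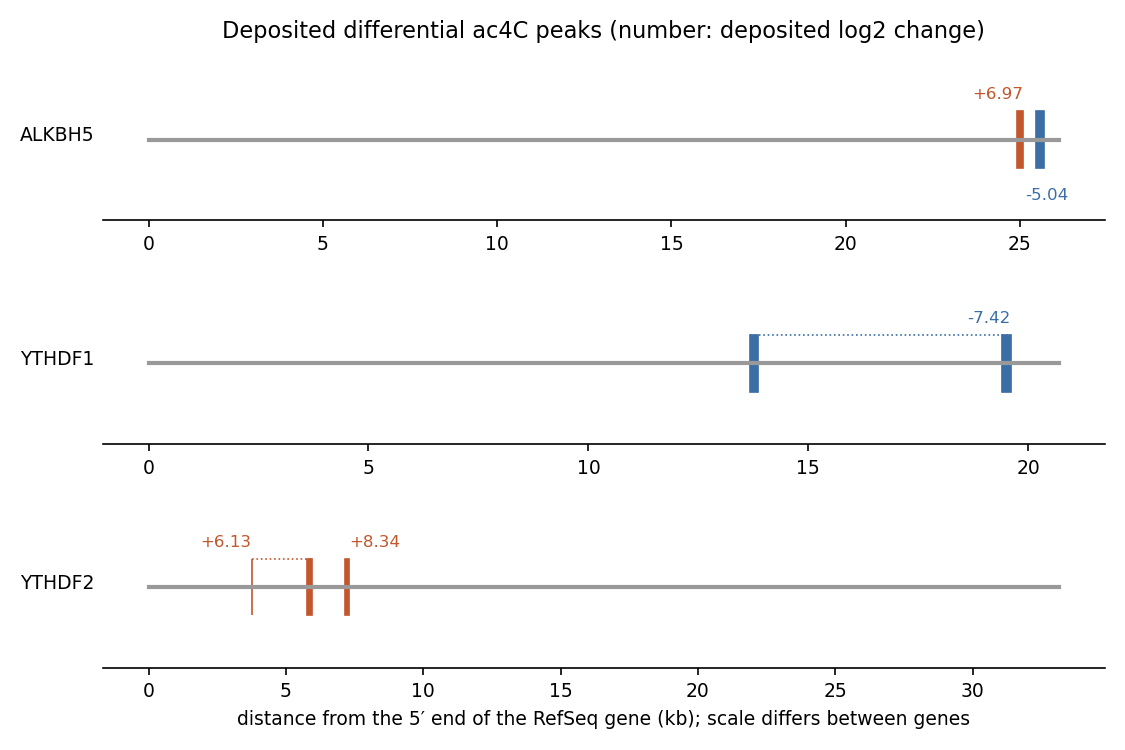
Deposited differential ac4C peaks along ALKBH5, YTHDF1 and YTHDF2, drawn to scale as distance in kb from the 5′ end of each RefSeq gene (grey line), with orange for a positive and blue for a negative deposited log2 change and a dotted line joining the blocks of 1 peak. The ALKBH5 and YTHDF1 peaks reach within 447 and 1100 nt of the gene's 3′ end, and the YTHDF2 peaks begin 3753 and 7162 nt from its start.

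Set beside the input levels, the deposited log2 changes in YTHDF2 were 6.13 and 8.34, with an input difference of 3.11. In YTHDF1 the deposited change was -7.42, with an input difference of 2.06. In ALKBH5 1 peak had each sign (6.97 and -5.04), with an input difference of -2.62. The numerator of the peak table is not stated, so whether a deposited sign runs with or against the input difference is not known. The input differences also did not pass, and no relation is read from these 5 peaks. Input was low in some libraries of the genes with peaks. YTHDF2 was listed at 0 in shNC replicate 1, and ALKBH5 rested on 0 and 1 fragments in replicates 1 and 2 labelled shNAT10. No source used here says how the authors scaled peaks to input, and the part of these low inputs in the deposited changes was not tested.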

How the data were processed

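Members and gene lists were chosen with earlier results of these data known. The authors deposited gene levels as FPKM and a differential peak table whose p-value of the peak call, fold (a ratio), log2 change and FDR score (log10, per the file headers) were used as given. The submitters' processing notes name HOMER 4.10.4, HISAT2 2.1.0 and cutadapt 2.5 without saying what each did, and the builds GRCh38 and GRCm38. Coordinates were read as GRCh38, since 98.4% of 2190 peaks with a RefSeq symbol lay within that gene (GRCh38.p14), and are printed counting from 1. Tools for counting and peak calling are not given in the sources used. Columns named NC matched shNC inputs, columns named sh were taken as shNAT10 by elimination, and 0 columns stayed unmapped.

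The hairpins were compared in input with limma 3.58.1 under R 4.3.3 (lmFit, trended eBayes) on log2(FPKM + 1), keeping genes whose mean FPKM reached 1, with Benjamini-Hochberg adjustment over all 10517. Prior degrees of freedom were 213, so SE and p rest mostly on genes of like level. Fragments were recovered with library scales that made 13 mitochondrial mRNAs of RefSeq length whole, and 15013 of 15014 genes were then whole to within 0.001 fragments, which says little, since lengths were searched until they were. For METTL3, YTHDF3 and YTHDC2, above 0 in 1 library, lengths could be found only up to a factor, so no fragments are given. PCR copies were not marked. The limma intervals were built from the SE of the fit, and only the limits given in fragments are limits of counting error. Same-numbered libraries did not deviate together (correlations 0.00, -0.02 and 0.01), so no pairing by number was seen. The spread between replicates could hide a weak one. Replicates of the same group correlated at only 0.38 to 0.41 on log2(FPKM + 1) over tested genes. Named genes were the members, NAT10, and per pathway list those past the test or else the most abundant. RBM15, TBP, HPRT1 and ACTB were added after their values were seen. Peak sequences are not printed, as no genome was used here.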

Additional observations from a re-analysis of the deposited data

How the results depend on the processing

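No member passed in any alternative. Limma on FPKM passed at most 1 protein-coding gene in any setting, so a count of 0 was likely for any such list. WTAP, YTHDF1, YTHDF2 and ALKBH5 kept their direction in all 14 of theirs. WTAP ran from -5.85 to -3.47 (lowest limma adjusted p = 0.111), YTHDF2 from 2.05 to 4.62 and ALKBH5 from -5.05 to -1.40. METTL3 and YTHDF3, listed at 0 throughout shNC, could not turn, and both were 0.00 without shNAT10 replicate 1. VIRMA turned to -0.44 without that library, and METTL14 and YTHDC1 turned to 0.31 and 0.50 without shNC replicate 3. These 5 values keep the filter over all 6 libraries, have no test and were added after seeing the data. METTL14 turned to 0.49 and YTHDC1 to 0.33 under quantile normalization, and YTHDC1 to 0.17 and NAT10 to -1.81 without replicates 2 and 3 labelled shNAT10, a setting also chosen after seeing the data, in which the spread came from shNC alone and 11.7% of tested genes had an unadjusted p under 0.05.

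Of all genes limma called 20. It called 0 with no filter (340 at an unadjusted p under 0.05), 10 at a mean FPKM of at least 5, 0 without replicates 2 and 3 labelled shNAT10 (1139 unadjusted), and voom on recovered fragments, also added later, called 95. With each replicate left out the count ran from 1 (without shNC replicate 1, 2 or 3) to 34 (without shNAT10 replicate 2), and was 12 without shNAT10 replicate 1. The causes were not tested. With the replicate block, for which no pairing was seen, limma called 21 genes, and the block changed no call of a member (WTAP adjusted p = 0.821). The median difference of all tested genes was -0.74 on the TPM scale and -0.08 after quantile normalization, against -0.49. At an FDR of at most 0.01 the members kept 4 of 5 deposited peaks, and 5 lay within their RefSeq genes.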
